A study of Mus musculus and Homo sapiens with 40 samples.

Results

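H3K27ac regions that p42-expressing HPC-7 cells held with and without LPS, and that p30-expressing cells lacked in both conditions, are described here. The series holds 4 pooled H3K27ac peak lists, 1 for each isoform with LPS and 1 without, and these were merged by an overlap of at least 1 bp into 183190 union regions on chromosomes 1 to 19, X and Y. A region was selected when a peak of both p42 lists and no peak of either p30 list overlapped it. This rule chose 4185 regions, 2.28% of all union regions and 6.18% of the 67700 regions present in both p42 lists. They are called p42-only regions, and because H3K27ac chose them, their H3K27ac values are a description.

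HPC-7 cells are a line of mouse blood progenitors. Each of the lines carried 1 isoform of the transcription factor CEBPA, the full-length p42 or the N-terminally shortened p30, fused to ERT2, a modified ligand-binding part of the estrogen receptor, and expressed from a retroviral vector in all cells that were kept after sorting for the GFP of that vector. Both lines therefore carried a fusion protein, and the study's methods state that hydroxytamoxifen was given to cells with such fusions before experiments, although the sample labels do not name it. H3K27ac was measured in 3 samples per group, in untreated cells and after LPS at 100 ng/mL for 2 h, and each list was called on the pooled samples. H3K4me1 (2 samples per line, pooled) and anti-ER (1 library per line) were measured in untreated cells. The labels of the anti-CEBPA samples (1 library per line) name no treatment, and these samples were taken as untreated. Isoform and cell line cannot be told apart in this design, and no list has a replicate of its own, so no p-value is given. Shares are followed by Wilson 95% intervals, which cover counting error over regions only, although neighbouring regions are not independent. The study states 1 range of sequencing depth for all samples, and the lists do not give the reads behind each of them. A peak list from bulk cells also cannot tell a mark in fewer cells from less of the mark per cell.

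CEBPA is a basic leucine zipper factor that drives myeloid differentiation, in particular toward granulocytes. The p30 isoform keeps the DNA-binding part and lacks most of the N-terminal transactivation region of p42, and leukemia-associated CEBPA mutations favor it. H3K27ac is placed by the acetyltransferases CBP and p300 and marks active promoters and enhancers, whereas H3K4me1 marks enhancers whether active or not. CEBP proteins bind a short palindrome-like sequence as dimers, and can also pair with other leucine zipper proteins such as ATF4 and AP-1 members on composite sequences.

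A H3K27ac peak lay within 1 kb of a start site of 11 of 11 progenitor marker genes in each of the 4 lists, Kit, Gata2 and Runx1 among them. In both p42 lists this was so for 0 of 4 B cell genes, 0 of 4 T cell genes, 2 of 4 mature neutrophil genes (Ltf and Camp, not Ly6g and Mmp8), 3 of 4 macrophage genes (not Marco) and 2 of 4 erythroid genes (not Hba-a1 and Hbb-bs). The p30 lists had the same macrophage and erythroid genes, and for neutrophil genes 1 of 4 untreated, without Camp, and 2 of 4 with LPS. In the p30 LPS list, 1 of the B cell genes (Cd79a) and 1 of the T cell genes (Cd4) had a peak.

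Sequences at the center of some of these regions are shown to let the CEBP sequence be seen where p42 was called. Each run is the reference sequence of GRCm39 over 120 bases, centered on the strongest p42 anti-CEBPA summit of a p42-only region and lying inside that region, and is named after the nearest protein-coding gene. Capitals mark matches on either strand to CEBP (TTGCNNAA), the composite CEBP:AP1 (TGTTGCAA) and CEBP:ATF4 (TGATGCAA) sequences, AP-1 (TGACTCA) or PU.1 (GAGGAAGT). CEBP can share bases with either composite sequence. Only windows with a match were eligible, so these runs do not show how often a match occurs. The share with a CEBP match in 200 bp around the p42 anti-CEBPA summit is given further on.
Rflnb, chr11:75924705-75924824, plus strand: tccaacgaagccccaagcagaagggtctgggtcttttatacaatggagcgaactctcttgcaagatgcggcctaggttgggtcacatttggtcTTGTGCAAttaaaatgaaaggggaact
Hal, chr10:93324454-93324573, plus strand: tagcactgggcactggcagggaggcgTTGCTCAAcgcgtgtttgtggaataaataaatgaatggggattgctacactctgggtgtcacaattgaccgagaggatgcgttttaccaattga
Nfil3, chr13:53130841-53130960, plus strand: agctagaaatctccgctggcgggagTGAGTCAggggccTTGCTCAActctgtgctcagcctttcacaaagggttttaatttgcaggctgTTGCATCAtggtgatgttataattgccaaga
Bace1, chr9:45754939-45755058, plus strand: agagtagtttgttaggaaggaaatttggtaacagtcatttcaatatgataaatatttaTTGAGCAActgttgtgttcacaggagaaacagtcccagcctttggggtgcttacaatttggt
Nsmce2, chr15:59328582-59328701, plus strand: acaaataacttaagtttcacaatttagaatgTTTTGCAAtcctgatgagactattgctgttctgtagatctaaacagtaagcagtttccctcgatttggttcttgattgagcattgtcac
Gfi1, chr5:107826401-107826520, plus strand: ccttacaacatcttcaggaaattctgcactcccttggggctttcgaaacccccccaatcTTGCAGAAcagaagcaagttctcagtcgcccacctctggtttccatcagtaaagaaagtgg
Nedd9, chr13:41593803-41593922, plus strand: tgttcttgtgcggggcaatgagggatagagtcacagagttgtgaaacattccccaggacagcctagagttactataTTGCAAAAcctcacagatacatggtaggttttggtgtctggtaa
Lyst, chr13:13742430-13742549, plus strand: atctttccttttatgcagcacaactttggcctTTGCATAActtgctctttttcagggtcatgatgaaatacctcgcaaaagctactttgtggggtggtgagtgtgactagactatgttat
The regions near Rflnb, Hal and Nfil3 were among the 10 with the best H3K27ac rank, those near Bace1 and Nsmce2 were among the 5 best with p42 sites of both antibodies and no p30 site, and those near Gfi1, Nedd9 and Lyst belonged to genes with the most p42-only regions. The window near Nfil3 held 3 different motifs, an AP-1, a CEBP and a CEBP:ATF4 sequence, and each of the other windows held 1 CEBP sequence.

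The p42-only regions were of low to middle strength in the lists that chose them. Peaks of each list were ranked by the authors' fold enrichment over local background, and a rank percentile near 0 is the strong end. The median p42-only region stood at 58.4% of the untreated p42 list and at 66.5% of the p42 LPS list, with median fold enrichments of 3.08 and 3.09. For regions found in all 4 lists these medians were 24.5% and 31.1%. The best-ranked p42-only region was 7567th of 129369 peaks untreated and 8846th of 107141 with LPS, and only 5 and 3 of them reached the strongest 10% of these lists. At the rule's edge, the weaker of the p42 peaks of a region had a median −log10 q of 3.58 and a lowest value of 1.31, and in 31.4% of the regions both p42 peaks had a q under 1e-05. A further 3207 regions missed the rule only through a peak in the untreated p30 list and 3657 only through a peak in the p30 LPS list, and those p30 peaks had a median −log10 q of 4.08 and 4.62.

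Within the p42 lists, ranks with LPS scattered around those of untreated cells. These percentiles come from lists of unequal length, 129369 peaks untreated and 107141 with LPS. The percentile in the LPS list minus that in the untreated list had a median of 5.84 points, with 10% of the regions below −23.3 and 10% above 35.4, and 37.6% of the p42-only regions ranked better with LPS. For regions present in all 4 lists the median was 3.13 points and 26.3% ranked better. The largest shift to a better percentile was in an intron of Stom, a membrane scaffold protein, with 98.1% untreated and 19.8% with LPS (fold enrichment 2.14 untreated and 7.53 with LPS). The largest shift the other way was 2176 bp from the start of Zyg11b, with 22.7% and 96.6% (5.45 and 2.38). Both were picked by these values, which rest on 1 pooled list each.

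The regions were short and mostly away from promoters. Their median width was 423 bp, close to the 427 bp of the 12225 regions of the mirrored class (both p30 lists, neither p42 list, called p30-only regions) and far from the 1464 bp of regions present in all 4 lists. Introns held 61.5% of the strongest summits, intergenic sequence 15.1%, exons 14.0% and promoters, taken as 1000 bp before a start site up to 100 bp after it, 9.41% (8.57 to 10.3). Promoters held 13.0% of all union regions, 8.40% of the p30-only regions and 22.1% of the regions in all 4 lists. Of the p42-only regions, 52.0% (50.5 to 53.5) lay within 1 kb of a p30 H3K27ac peak that did not overlap them, at a median distance of 913 bp over all of them. The share was similar or higher in like classes, since 51.2% of the p30-only regions lay within 1 kb of a p42 peak, and 59.3% and 60.5% of the regions of the untreated or LPS p42 list alone lay within 1 kb of a p30 peak. The other 2010 regions had no p30 peak within 1 kb, and 520 had none within 10 kb. By chromosome, the share of union regions that were p42-only ran from 1.53% on chromosome 17 and 1.72% on chromosome 11 to 2.99% on chromosome 14, apart from chromosome Y with 1 such region.

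H3K4me1, which the rule did not use, was found at p42-only regions more often in the line that carried the H3K27ac. In untreated p42-expressing cells 40.2% (38.7 to 41.7) of them had a H3K4me1 peak, against 36.4% of all union regions. In p30-expressing cells 30.2% (28.8 to 31.6) had one, against 42.8%. The p30-only regions had the opposite order, with 29.9% (29.1 to 30.7) in the p42 line and 47.9% (47.0 to 48.8) in the p30 line. Neither line had a H3K4me1 peak at 53.8% of the p42-only regions, both did at 24.3%, p42 alone at 15.9% and p30 alone at 5.95%. Thus 30.2% of these regions overlapped a H3K4me1 peak of p30-expressing cells without a p30 H3K27ac peak, below the 42.8% of all union regions. This share was 18.1% when the summit of the H3K4me1 peak had to lie in the region. Among the regions with no p30 H3K27ac peak within 1 kb it was 26.9%. As to strength, the H3K4me1 peaks at p42-only regions had a median rank of 39.0% in the p42 list and 47.2% in the p30 list.

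Anti-ER recognizes the ERT2 part of the fusion proteins, anti-CEBPA also the cells' own CEBPA. Both antibodies found sites at p42-only regions far more often than at p30-only regions. With anti-CEBPA, 22.1% (20.9 to 23.4) of the p42-only regions had a p42 site, against 6.74% of all union regions and 0.834% (0.688 to 1.01) of the p30-only regions. With anti-ER this was 20.5% (19.3 to 21.7), against 6.54% and 0.450% (0.346 to 0.585). The p30 protein was found at 10.7% (9.78 to 11.6) of the p42-only regions with anti-CEBPA, where all union regions had 5.41%, and at 17.4% (16.3 to 18.6) with anti-ER, where they had 8.86%. Few p30-only regions had a p30 site: 0.704% (0.570 to 0.868) with anti-CEBPA and 1.90% (1.67 to 2.15) with anti-ER. The intervals of the p42- and p30-only regions were far apart with either antibody and in either line.

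**Figure D1:**
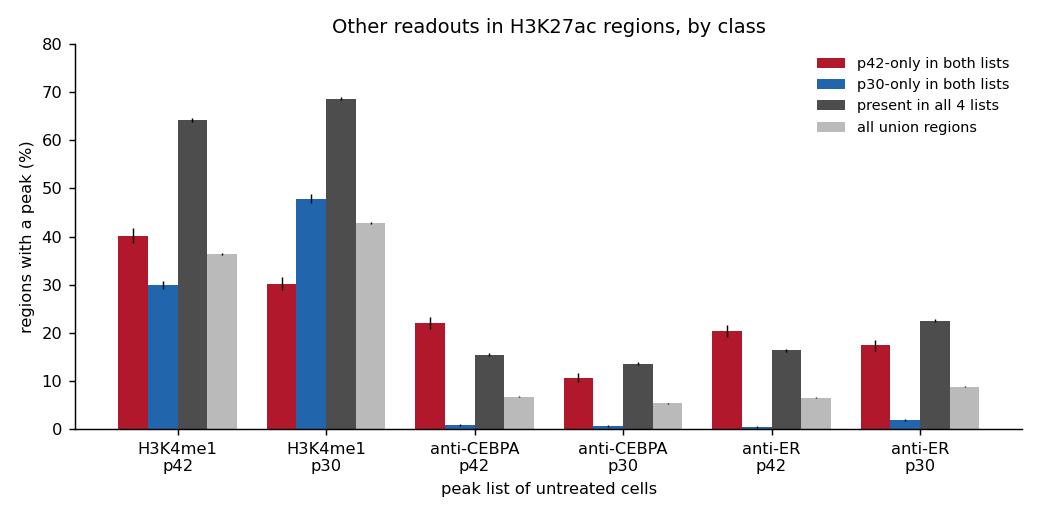
Share of H3K27ac regions (vertical axis, percent) that overlap a peak of each list (horizontal axis), with Wilson 95% intervals. The axis calls all lists untreated, although the labels of the anti-CEBPA samples name no treatment. Classes are 4185 p42-only regions, 12225 p30-only regions, 56651 regions present in all 4 lists and all 183190 union regions. The p42-only regions exceed the p30-only regions in each CEBPA list, while the H3K4me1 bars of these classes change order between the lines.

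Regions present in all 4 lists are longer, which leaves more room for a site, and stronger. They had a p42 anti-CEBPA site in 15.5% (15.2 to 15.8) and a p42 anti-ER site in 16.4% (16.1 to 16.7) of cases. For p30 sites their shares were 13.6% with anti-CEBPA and 22.5% with anti-ER, both above those of the p42-only regions. How a site is assigned mattered here. When its summit had to lie inside the region, the p42-only share with anti-CEBPA was 10.2% and that of the regions in all 4 lists was 14.1%, the reverse of the order by overlap. When the summit had to lie within 500 bp of the strongest H3K27ac summit, a window of the same length for each region that was added after the data had been seen, these were 26.3% and 10.8%, and the p30-only regions had 1.37%. Among regions of 300 to 500 bp, 15.8% of 1794 p42-only regions had a p42 anti-CEBPA site, 4.05% of 3534 regions in all 4 lists and 0.587% of 5110 p30-only regions. Among those of at least 1000 bp these shares were 64.0% of 314, 19.8% of 38997 and 1.76% of 568.

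The summits of both kinds of signal lay side by side. From the p42 anti-CEBPA summit to the strongest H3K27ac summit of the same p42-only region the median distance was 247 bp, and only 6.49% of 924 such regions had them within 100 bp. By contrast, 97.8% of the 719 regions with sites of both antibodies in p42-expressing cells had the anti-CEBPA and anti-ER summits within 100 bp of each other, at a median distance of 18 bp. Where p42 and p30 both had an anti-CEBPA site, the median distance between their summits was 16 bp over 417 regions. A single site can lie between neighbouring regions and be counted at each, since 893 anti-CEBPA sites accounted for the 924 regions.

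CEBPA sites followed the strength of the H3K27ac peak. In the strongest quintile of the untreated p42 list, 73.2% (66.9 to 78.7) of 213 p42-only regions had a p42 anti-CEBPA site and 76.1% (69.9 to 81.3) a p42 anti-ER site. In the next quintile these shares were 40.2% and 40.1% of 928 regions, and in the weakest quintile 8.02% and 6.48% of 973. Regions present in all 4 lists had 27.8% and 30.9% in the strongest quintile and 2.57% and 2.01% in the weakest. In the strongest quintile the p30 protein was at 44.1% (37.6 to 50.9) of the p42-only regions with anti-CEBPA and at 67.6% (61.1 to 73.5) with anti-ER. Strength and width go together, as the median width of the p42-only regions was 1046 bp in the strongest quintile and 364 bp in the weakest, and their separate parts were not tested.

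**Figure D2:**
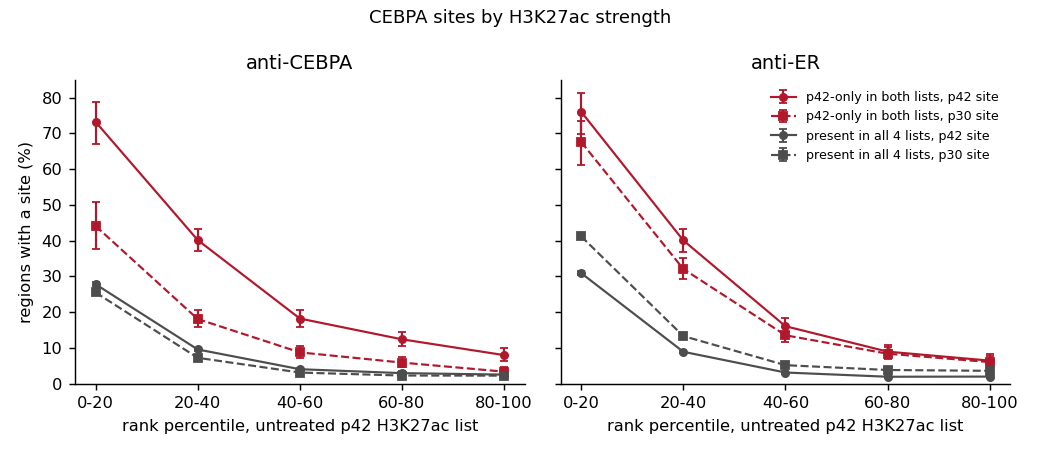
Share of regions with a CEBPA site (vertical axis, percent) in quintiles of the rank in the untreated p42 H3K27ac list (horizontal axis, strongest on the left), for anti-CEBPA (left) and anti-ER (right). Red points are p42-only regions, grey points regions present in all 4 lists, solid lines p42 sites, dashed lines p30 sites, and bars Wilson 95% intervals. In the strongest quintile 73.2% of the p42-only regions had a p42 anti-CEBPA site and 44.1% a p30 site.

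Most p42-only regions had no called site at all, and those with a p42 site usually had a p30 site too. No site of either antibody in either line was found at 72.9% (71.5 to 74.2), against 89.2% of all union regions. A p42 site of at least 1 antibody was present at 1061 regions, of which 716 also had a p30 site and 345 (8.24% of the p42-only regions) did not. A p30 site alone was present at 73 (1.74%). Both antibodies found p42 at 17.2% (16.1 to 18.4) of the p42-only regions, against 5.04% of all union regions. At 150 of these regions neither antibody found p30, and at 13 regions both found p30 and neither found p42. Peak calls from 1 library each do not show that the other protein was missing.

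Where both proteins had a site, that of p42 usually ranked better within its list. At the 417 p42-only regions with an anti-CEBPA site in both lines, the median rank percentile was 15.4% in the p42 list and 37.9% in the p30 list, the median fold enrichments were 14.9 and 8.85, and 86.1% of the regions ranked better in p42. In the all-list class the medians were 30.7% and 34.4%, and 56.4% of 6269 ranked better in p42. With anti-ER the p42-only medians were 21.2% and 33.5% and 67.7% of 603 regions ranked better in p42. For regions of all 4 lists this antibody gave the opposite order, 38.7% and 24.6%, and 26.4% of 8546 ranked better in p42. Percentiles depend on the length of each list, and there is 1 library per list.

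Regions that p42-expressing cells had in 1 condition alone, and that p30-expressing cells lacked, had few CEBPA sites. Present in the untreated p42 list alone were 17040 regions and in the p42 LPS list alone 6861. A p42 anti-CEBPA site was found at 3.23% (2.98 to 3.51) and 3.85% (3.42 to 4.33) of them, H3K4me1 in p42-expressing cells at 18.5% (17.9 to 19.1) and 22.7% (21.7 to 23.7). The p42-only regions, with 22.1% and 40.2%, lay above both. The regions of a single list were also narrower, with median widths of 234 bp and 215 bp, and weaker, with median ranks of 78.4% and 81.7%.

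Of the 14 motifs counted, the CEBP sequence differed most from all union regions in percentage points, while the composite CEBP sequences differed more by ratio. Within 1000 bp around the strongest summit, 45.5% (43.9 to 47.1) of the 3791 distal p42-only regions, those outside promoters, held it, against 33.9% of the 159342 distal union regions and 31.0% (30.2 to 31.9) of the distal p30-only regions. The composite CEBP:AP1 sequence was in 5.06% (4.41 to 5.81), against 2.70%, and CEBP:ATF4 in 4.46% (3.85 to 5.16), against 2.62%. The MYB sequence (AACNGTT) was in 20.4% (19.2 to 21.7), against 17.8%. AP-1 was in 21.1% (19.8 to 22.4), against 18.9%, but distal regions present in all 4 lists had it as often (21.5%). This likeness depended on the rule. AP-1 was in 24.9% (22.5 to 27.5) when both p42 peaks needed a q under 1e-05. It was in 23.5% (21.6 to 25.5) when no p30 peak was allowed within 1 kb. The p30-only regions under the mirrored limits had AP-1 in 17.8% and 17.6%. The letters of AP-1 in reversed order (ACTCAGT), a control, were in 17.7% (16.5 to 19.0), against 17.5%. Below the share of all union regions were PU.1, with 7.86% (7.05 to 8.76) against 9.41%, the E-box CAGCTG, with 36.0% (34.4 to 37.5) against 42.2%, and the NF-kB consensus, with 8.36% (7.52 to 9.29) against 11.0%. For PU.1 the share was 10.9% when both p42 peaks needed a q under 1e-05 and 9.82% when no p30 peak was allowed within 1 kb. The p30-only regions under the mirrored limits had 13.7% and 11.9%, and all union regions were not counted under them. A match is no proof of binding.

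Base composition moved with some of these shares. The windows of p42-only regions had a median GC content of 44.0%, those of all union regions 45.9%. In windows with GC under 40% the CEBP sequence was in 55.0% of the distal p42-only and 42.3% of all distal union regions. Between 40 and 50% it was in 44.2% and 34.8%, and from 50% on in 36.4% and 25.7%, so the higher share was present in each GC class. The E-box was less frequent in each class, with 21.9% and 26.0%, 38.0% and 40.9%, and 47.9% and 56.4%. AP-1 was in 21.6% and 17.4%, 22.0% and 19.4%, and 14.4% (11.4 to 18.2) and 18.3%, so its order turned in the windows of highest GC. MYB was in 25.3% and 23.8%, 20.2% and 18.6%, and 13.0% and 11.4%, and PU.1 in 6.89% and 8.18%, 8.18% and 9.53%, and 7.58% and 9.76%. For NF-kB the pairs were 3.78% and 4.22%, 8.63% and 9.52%, and 14.9% and 19.7%, and the interval of the p42-only share (2.63 to 5.41, 7.62 to 9.76, 11.8 to 18.7) held the overall value in all but the last class.

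**Figure D3:**
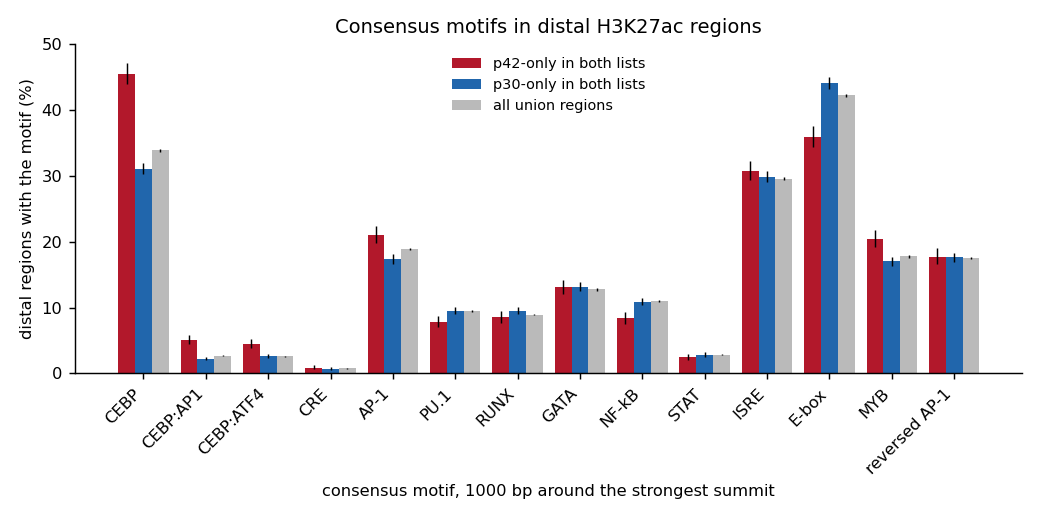
Share of distal regions (vertical axis, percent) that hold each of 14 consensus motifs (horizontal axis) on either strand within 1000 bp around the strongest summit, for p42-only regions, p30-only regions and all union regions, with Wilson 95% intervals. CEBP (45.5% of the p42-only regions) and its composite sequences stand above both other classes in the p42-only regions, the E-box and NF-kB below, and the reversed AP-1 control is level.

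The CEBP sequence went with the sites. Of the distal p42-only regions with a p42 site of either antibody, 67.1% (64.0 to 70.0) of 953 held it in the 1000 bp window, and of those without such a site 38.3% (36.5 to 40.1) of 2838, where the p30-only regions without a p42 site had 30.8% (29.9 to 31.7). CEBP:AP1 was in 11.0% and 3.07% of these p42-only regions and CEBP:ATF4 in 8.71% and 3.03%. In the 200 bp around the p42 anti-CEBPA summit, 51.1% (47.9 to 54.3) of 924 p42-only regions and 48.7% (47.7 to 49.8) of 8782 regions in all 4 lists held CEBP. Windows of the same length at the strongest H3K27ac summit of all union regions held it in 6.05%. Among the 472 p42-only regions with a match, the nearest one lay a median of 15 bp from the summit. CEBP:AP1 was in 9.20% (7.50 to 11.2) of the p42-only windows and in 5.99% (5.51 to 6.50) of those in all 4 lists.

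Protein-coding genes with a p42-only region nearest to their start site numbered 2751 of 21738, and 1922 of them had just 1. Of the regions, 53.0% lay within 10 kb and 94.3% within 100 kb of that start site. Nearness is no evidence that a region acts on the gene.

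Gene lists were compared by the share of the union regions nearest to their genes that were p42-only, beside 2.28% overall. The granule and neutrophil list and the monocyte and macrophage list had the highest shares. Their intervals overlapped those of the inflammatory lists given below. Among granule and neutrophil effector genes 10 of 145 regions (6.90%, 3.79 to 12.2) were p42-only. Of these 145 regions 1 was p30-only (0.690%, 0.122 to 3.80), against 6.67% of all union regions. Genes near them included S100a8 (2), Ltf (2), Lyz2, Lyz1 and Anxa1. S100a8, which makes a subunit of the neutrophil protein calprotectin, had 2 union regions in all, and both were p42-only. The region at its promoter had H3K27ac fold enrichments of 4.50 untreated and 4.92 with LPS, with p42 sites of 10.1 (anti-CEBPA) and 19.7 (anti-ER) and a p30 site of 7.36 with anti-ER alone. Among monocyte and macrophage genes 20 of 363 (5.51%, 3.60 to 8.36) were p42-only, near Emb (9), F13a1 (7), Lgals3 (2), Cd44 and Trem1, and 9 were p30-only (2.48%, 1.31 to 4.64). Most of that list's count came from Emb and F13a1.

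Inflammatory lists had shares above the overall one with wide intervals. For the LPS receptor and Toll-like signalling 11 of 226 regions (4.87%, 2.74 to 8.50) were p42-only, near Tlr4 (5), Tlr13 (2), Tlr6, Irak3, Nlrp3 and Tlr7, and 8 were p30-only (3.54%, 1.80 to 6.83). For inflammatory cytokines and chemokines there were 13 of 308 (4.22%, 2.48 to 7.09), near Il1b (3), Csf1 (2), Ccl2 (2) and 6 further genes, and 8 p30-only (2.60%, 1.32 to 5.04). Immediate early genes and MAPK phosphatases had 25 of 599 (4.17%, 2.84 to 6.09), of which Dusp6 had 9 and Dusp4 had 3. They also had 54 p30-only (9.015%, 6.975 to 11.58), where all union regions had 6.67% p30-only. By contrast, NF-kB subunits and inhibitors had 3 of 350 (0.857%, 0.292 to 2.49). The AP-1 family had 8 of 359 (2.23%, 1.13 to 4.33), 3 of them near Fosl1, and the interferon-stimulated genes 5 of 170 (2.94%, 1.26 to 6.70).

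Lists of progenitor and other lineages had shares whose intervals held the overall 2.28%. Stem and progenitor transcription factors had 21 of 1389 (1.51%, 0.991 to 2.30) p42-only and 125 p30-only regions (interval 7.60 to 10.6%), and 7 of the former were near Myc, 4 near Runx1 and 3 near Ikzf2. Growth factor and cytokine receptors had 9 of 625 (1.44%, 0.759 to 2.71), 4 of them near the chemokine receptor Cxcr4, and 55 p30-only (8.80%, 6.82 to 11.3). Myeloid transcription factors had 16 of 908 (1.76%, 1.09 to 2.84), 9 near Gfi1 and 3 near Zeb2, and 73 p30-only (8.04%, 6.44 to 9.99), an interval that held the overall 6.67%. Mast cell, erythroid and megakaryocyte genes had 5 of 202, 3 of them near Hdc, which makes histamine, and 28 p30-only (13.9%, 9.77 to 19.3). Lymphoid marker genes had 0 of 76 (upper limit of the interval 4.81%) and 12 p30-only (15.8%, 9.27 to 25.6). Among the remaining lists, C/EBP family and Tribbles genes had 6 of 167 (Trib1 with 3), stress and growth arrest genes 14 of 369 (Btg1 with 5) and DNA replication genes 4 of 290. Of the listed genes, Azu2 and Vpreb1 had no match in the annotation.

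**Figure D4:**
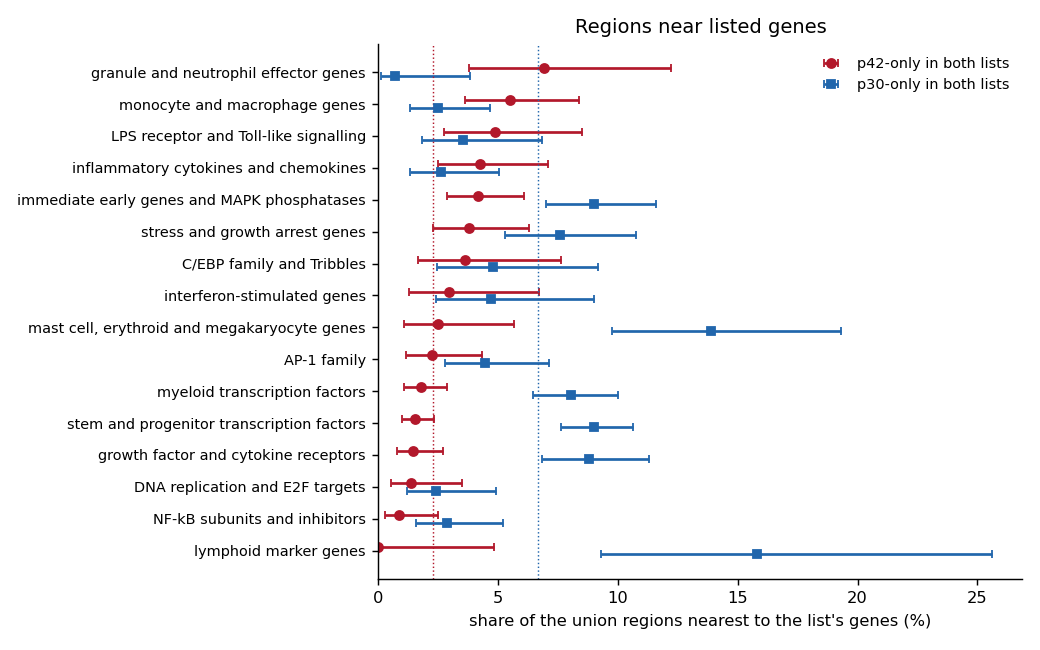
Share of the union regions nearest to the genes of each list (horizontal axis, percent) that were p42-only (red) or p30-only (blue), with Wilson 95% intervals, and the shares over all union regions as dotted lines (2.28% and 6.67%). Granule and monocyte lists stand at the top for p42-only regions, while the progenitor and lymphoid lists stand below the red line and above the blue one.

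Counts of CEBPA sites varied among the genes with the most p42-only regions. Over all p42-only regions, 25.4% had a p42 site of either antibody, 18.85% a p30 site and 72.9% no site in either line. With so few regions per gene, few sites or none at a gene is not set apart from these shares. Nedd9, a scaffold protein of cell adhesion, and Atp8b4, a phospholipid-transporting ATPase, had 11 each. At Nedd9 5 of these had a p42 site and 5 a p30 site, whereas at Atp8b4 none of the 11 had a site of either antibody in either line. Gng12, a G protein subunit, Fndc3b and Sipa1l1, a regulator of Rap GTPases, had 9 regions each and no site either. At Gng12 9 of 9 and at Atp8b4 7 of 11 regions had H3K4me1 in p42-expressing cells, and in p30-expressing cells 7 and 6 did. Over all p42-only regions the H3K4me1 shares were 40.2% in the p42 line and 30.2% in the p30 line. Pde4d, which breaks down cyclic AMP, had 10 regions with 1 p42 site. Tbc1d5, a regulator of endosome transport, had 8 with 4 p42 sites, Elmo1, needed for engulfment and cell movement, had 8 with 1, Lyst, whose loss gives giant granules in leukocytes, had 8 with 1, and Itpr1, a calcium channel, had 8 with none. Long genes hold more union regions, so these counts stand beside 227 union regions at Pde4d, 208 at Elmo1 and 101 at Atp8b4, but only 32 at Dusp6 and 35 at Gfi1.

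Gfi1 encodes a zinc finger repressor needed for neutrophil development. Of its 35 union regions 9 were p42-only, 1 was p30-only and 7 were in all 4 lists. The p42-only regions nearest to its start ran from 29.4 kb before its 5′ end to 47.7 kb beyond it. The strongest, at chr5:107825434-107827144, lay outside Gfi1, in an intron of another annotated gene, and had H3K27ac fold enrichments of 7.56 untreated and 6.45 with LPS, and H3K4me1 of 7.78 in the p42 line and 4.29 in the p30 line. There the p42 sites had fold enrichments of 6.03 with anti-CEBPA and 15.6 with anti-ER, and p30 had one of 7.73 with anti-ER alone. Its CEBP sequence is among those printed above.

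Tlr4, the receptor for LPS, had 10 union regions, and 5 were p42-only, 3 were in all 4 lists and none was p30-only. The strongest lay in an intron of the gene, 24.9 kb from its 5′ end, at chr4:66769900-66771164, with fold enrichments of 12.4 untreated and 10.3 with LPS, the ranks 14673 and 16494. It had a p42 site of both antibodies (21.6 and 21.2) and a weaker p30 site with anti-ER (7.78), and no H3K4me1 peak in either line. The nearest p30 H3K27ac peak was 22378 bp away. The other 4 regions had fold enrichments of 2.52 to 4.75 untreated and 3.18 to 5.84 with LPS.

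The regions near Il1b, Fosl1 and Btg1 were of middle strength. Near Il1b, an inflammatory cytokine, 3 of 12 union regions were p42-only. Their fold enrichments were 2.70, 2.80 and 6.01 untreated and 4.61, 3.84 and 6.45 with LPS, so that each value was higher with LPS. By rank percentile the strongest was not better with LPS (20.6% untreated, 22.65% with LPS). The others moved from 77.1% to 32.7% and from 70.9% to 43.15%. Near Fosl1, an AP-1 member, 3 of 4 were p42-only, and 2 of these shared 1 p42 site of each antibody (21.8 and 18.7) just before the gene, where the region nearer to it also had p30 sites (9.31 with anti-CEBPA, 10.5 with anti-ER). Near Btg1, which restrains proliferation, 4 of 5 p42-only regions had a p42 site, and the strongest site, 68.9 kb from the 5′ end, had anti-CEBPA fold enrichments of 13.9 for p42 and 18.6 for p30, and anti-ER fold enrichments of 18.2 and 25.01. At this region p30 thus had the higher values with both antibodies.

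Dusp6, a phosphatase that switches off ERK, had 9 of 32 union regions p42-only and none p30-only. A pair of them, at −0.103 and 0.609 kb, flanked the 5′ end of the gene and shared a p42 site (11.0 with anti-CEBPA, 6.24 with anti-ER) and a p30 anti-ER site (4.505). Their H3K27ac fold enrichments were 3.56 and 3.95 untreated and 5.22 and 5.07 with LPS. Emb, which assists lactate transporters at the membrane, had 9 regions of which 1 had a CEBPA site, 48.6 kb before the gene, with an anti-CEBPA fold enrichment of 9.96 for p42 and 11.2 for p30. Of the other listed genes, Myc had 7 regions between 5.92 and 886 kb from its 5′ end, 3 with sites in both lines. F13a1, a clotting factor subunit of monocytes and platelets, had 7 regions, 1 of them with a p42 site. Regions with a p42 site were 4 of 4 at Cxcr4, 2 of 3 at Trib1, 1 of 3 at Zeb2 and 1 of 3 at Dusp4. Runx1 with 4 regions and Hdc and Ikzf2 with 3 each had none. Regions can share a site, since neighbours near Cxcr4 had the same values (9.87 with anti-CEBPA, 13.2 with anti-ER). So did neighbours near Btg1 (7.88 with anti-CEBPA) and Tlr4 (8.135 with anti-ER).

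**Figure D5:**
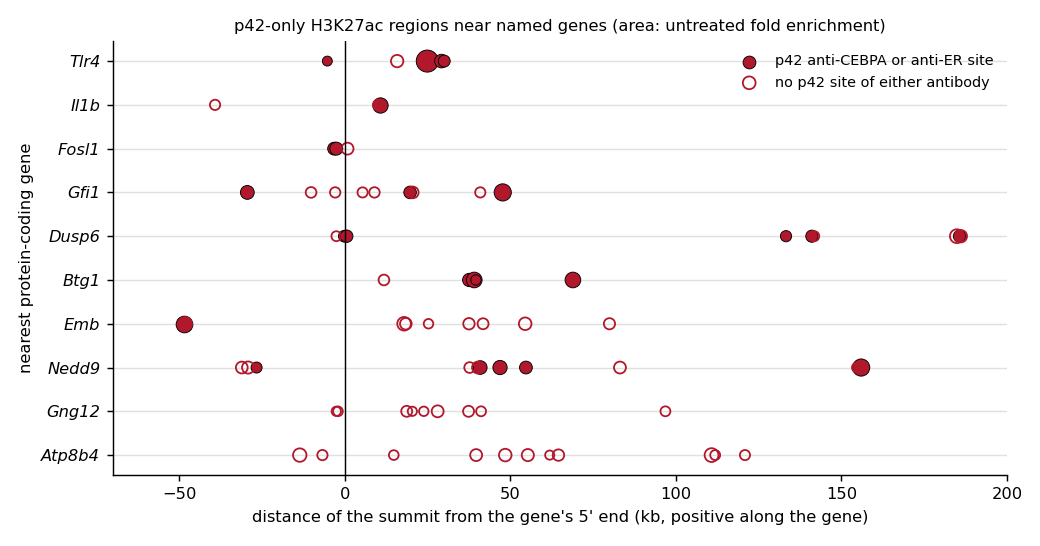
Position of p42-only regions along 10 named genes (vertical axis), as the distance of the strongest summit from the gene's 5′ end (horizontal axis, kb). The area of a circle grows with the untreated p42 H3K27ac fold enrichment, and filled circles have a p42 anti-CEBPA or anti-ER site. All circles at Gng12 and Atp8b4 are open, and 4 of 5 at Tlr4 and at Btg1 are filled.

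The 10 best-ranked regions lay near Rflnb, Hal, Klb (2 regions), Gda, Tmem241, Rhou, Nfil3, Fam107b and Sltm. Each had a p42 site of both antibodies. The p42 anti-CEBPA site was weak near Fam107b (fold enrichment 4.45, rank percentile 95.7%) and at chr5:65510154-65512767 in Klb (3.08, 99.8%). The best-ranked region, chr11:75923538-75925595, was intergenic, 5943 bp from the start of Rflnb, an actin-binding protein. Its H3K27ac fold enrichments were 26.1 untreated and 20.6 with LPS. Its anti-CEBPA site had a fold enrichment of 24.7 for p42 and 16.3 for p30, and its anti-ER site 37.2 for both. Promoters held 3 of the 10, those of Hal, which degrades histidine, Gda, a guanine deaminase, and Nfil3, a leucine zipper repressor. At the Hal promoter, chr10:93323078-93325985, the fold enrichments were 21.4 and 19.5 for H3K27ac, 37.0 for the p42 and 8.61 for the p30 anti-CEBPA site, and 49.1 and 21.9 for the anti-ER sites. H3K4me1 was present there in p42-expressing cells alone (4.67). At Nfil3 H3K27ac was 9.79 untreated and 16.1 with LPS.

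Klb, the coreceptor of FGF21, carried 2 neighbouring regions in introns, chr5:65510154-65512767 and chr5:65513026-65517078, with H3K27ac fold enrichments of 22.1 and 21.5 untreated and 15.2 and 18.6 with LPS. The nearest p30 H3K27ac peaks were 16810 and 19682 bp away. The second had p42 sites of 34.3 with anti-CEBPA and 49.4 with anti-ER and p30 sites of 8.43 and 26.3. Only the region in an intron of Rhou lacked a p30 site of either antibody among the 10. It had fold enrichments of 10.9 untreated and 11.98 with LPS for H3K27ac and p42 sites of 9.74 and 12.7. With the regions in Sntb2, Tango6, Bace1 and Nsmce2 it made up the 5 best-ranked with p42 sites of both antibodies and no p30 site, which ranked between 16338th and 22786th in the untreated list.

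At the loci that the study discusses, few regions were p42-only, and the counts are too small to set against the 2.28% of all union regions. Within 50 kb of Fos 0 of 21 union regions were p42-only, and within 50 kb of Cebpb 0 of 27, where 11 and 12 were present in all 4 lists. At Fos the study reports a stronger H3K27ac signal with p42 at enhancers that both isoforms bind. Presence of a peak in a list does not measure such a difference. Cxcl10 had 1 of 13, at chr5:92519358-92519686, and Gadd45a 1 of 34, at chr6:66969869-66970381, both weak, with ranks of 110558 and 110912 in the untreated p42 list. The region within 50 kb of Gadd45a is also counted above at Gng12, the gene with the nearest start site.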

How the data were processed

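ChIP-seq peak lists of HPC-7 cells were used as deposited. From the study's methods and the submitters' processing notes, trimming was done with Trim Galore 0.6.6, alignment with Bowtie2 to mm39 (the same build as GRCm39), marking of duplicates with Picard and peak calling with MACS2. The H3K27ac and H3K4me1 lists come from pooled samples, the other lists from 1 library each. The authors' lists give for each peak a fold (ratio) over the local background and a −log10 of the q-value. Peak names show that calling without a model was used for all but the anti-CEBPA lists. The study states 1 range of read depth for all samples, and the lists do not give the depth behind each. The ATF4 list of human KO-52 cells was not used.

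Peaks on the standard chromosomes were merged by strict overlap, so that touching peaks stayed apart. A region belonged to the protein-coding gene (GENCODE vM39) with the start site nearest to its strongest summit, and consensus motifs were counted on both strands. Regions and genes were named by a rule: the 10 best regions by the worse of their p42 percentiles, the 10 genes with most regions (with ties), the 5 best regions with p42 sites of both antibodies and no p30 site, listed genes with at least 3 regions, and 4 loci of the study. Genes with 1 or 2 regions that are named beside a list, the regions near Stom and Zyg11b, and the marker genes fall outside it. A gene that the rule would name is not reported here. The regions and lists were chosen with earlier results of these data known. The steps were tested on simulated lists. Python 3.11.15 with numpy 2.4.6, pandas 2.3.3 and matplotlib 3.10.9 was used.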

Additional observations from a re-analysis of the deposited data

How the results depend on the processing

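The p42-only regions numbered 1312 when both p42 peaks needed a q under 1e-05 and 2010 when no p30 peak was allowed within 1 kb. They numbered 5569 with equal numbers of H3K27ac peaks from each list and 5732 with presence set at 50% coverage. As used, the p30 lists were longer, with 139210 peaks untreated and 142419 with LPS, against 129369 and 107141 for p42. Shares are given in the order p42 H3K4me1, p30 H3K4me1, p42 anti-CEBPA, p30 anti-CEBPA, p42 anti-ER and p30 anti-ER. Under the q limit they were 52.2, 35.5, 45.6, 23.2, 45.1 and 37.6%. Without p30 peaks nearby they were 42.9, 26.9, 34.0, 16.5, 32.4 and 26.7%, and with presence set at 50% coverage of the region 50.0, 39.6, 28.9, 16.7, 29.4 and 26.3%. With the peak's summit inside the region they were 26.2, 18.1, 10.2, 4.64, 10.5 and 8.05%. With it within 500 bp of the H3K27ac summit, a measure chosen after seeing the data, they were 36.8, 26.95, 26.3, 13.3, 26.8 and 22.2%. Lists cut to equal length gave 25.7% for p30 H3K4me1, 17.7% for p42 anti-CEBPA and 13.5% for p30 anti-ER, and equal numbers of H3K27ac peaks 32.2% for p30 H3K4me1, 20.4% for p42 anti-CEBPA and 19.1% for p42 anti-ER. In each of these settings the p42 share was above the p30 share for all 3 readouts. Promoter regions made up 10.7% under the q limit and 31.4% within 2500 bp of a start site. The CEBP sequence was in 55.0% under the q limit, 49.9% without p30 peaks nearby, 47.3% at 50% coverage and 19.3% in a 400 bp window. AP-1 was in 24.9, 23.5 and 8.92% and PU.1 in 10.9, 9.82 and 3.25% for the q limit, no p30 peak nearby and the shorter window. The causes of these shifts were not tested. No paired analysis was possible because each list is pooled over its samples or holds 1 library, and for the same reason no replicate could be left out. Read depth limits which peaks are called, and the lists do not give it.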
